A study of Mus musculus with 2 samples.

Results

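Chemokine ligands are small secreted proteins that draw leukocytes along concentration gradients through receptors on the responding cell. In the intestine they are made by resident macrophages, stromal cells, endothelium, lymphocytes and epithelium, and several lie in gene clusters whose neighbours bind the same receptors. The source cell of each ligand was therefore described here for a given list of 33 mouse genes of this family, which leaves out some members such as Pf4, Ccl19 and Ccl27a. Of these, 32 had a row among the 31253 features, and Cxcl11, a ligand of Cxcr3, was not analysed here.

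The data are droplet counts of RNA molecules (unique molecular identifiers, UMIs) read from transcript 3' ends in cells of dissociated mouse intestine, from 2 libraries of 1 wild-type mouse each. The RA mouse ate standard chow and stands for the arthritis group, which the series text describes as collagen-induced. The other mouse, called butyrate below, ate a diet with 1% butyrate, and its labels do not say whether it also had arthritis. Strain, age and sex were not given in the labels. With 1 library in each group there was no replicate and no test, so diet, mouse and library cannot be told apart, and all intervals below are 95% intervals that cover counting error only.

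A barcode needed 500 UMIs or more, 250 detected genes or more and no more than 25% of UMIs from mitochondrial genes, which left 6909 of 10140 barcodes in the RA library and 8247 of 9959 in the butyrate library. The median depth was 4712 and 5141 UMIs, and 29.95% of RA barcodes against 15.42% of butyrate barcodes lay above the mitochondrial limit. The shallowest kept barcode had 501 UMIs in RA and 2316 in butyrate, and 19 kept barcode sequences occurred in both libraries. Source cells were gates on genes outside the ligand list: Epcam for epithelium, Cd79a for B cells, Cd3e for T cells, summed C1qa, C1qb and C1qc for macrophages, Flt3, Col1a2 for fibroblasts, Cdh5 for blood endothelium, and Prox1 with Mmrn1. Gates overlap, and values for barcodes in exactly 1 gate (exclusive barcodes) are given where they change a statement. A level in CPM is the gene's UMIs per 1000000 UMIs of the gate; each transcript is counted once from its 3' end, so levels were not divided by length.

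The C1q gate held 130 RA and 107 butyrate barcodes, the Col1a2 gate 865 and 367, the Cd3e gate 743 and 1355, the Epcam gate 1694 and 2092, the Cdh5 gate 107 and 99, and the Prox1 and Mmrn1 gate 132 and 64. The Cd79a gate held 3533 and 5108 and the Flt3 gate 563 and 1054. The Col1a2 gate thus made up 12.52% of kept RA barcodes and 4.45% of kept butyrate barcodes. Defining markers were detected in their own gates, but other markers were found there too. Of Epcam barcodes, 39.26% in RA and 42.3% in butyrate also had Cd79a, and 3 plasma cell markers summed to 5095 and 2339 CPM there. In the Cdh5 gate 3 pericyte markers summed to 689 and 686 CPM, beside 4035 and 4983 CPM of 5 blood endothelial markers. For 2 other gates the mixing changed the name used. Among Flt3 barcodes, 89.52% in RA and 93.83% in butyrate also had Cd79a, and their 5 B-cell markers summed to 1883 and 2069 CPM against 506 and 436 CPM for 7 dendritic markers, so this set is called by its gate gene. The Prox1 and Mmrn1 gate carried 3807 and 5903 CPM of 8 epithelial markers beside 2969 and 1490 CPM of 5 lymphatic markers, and is likewise called by its genes.

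Promoter sequences are shown for 4 inducible CXC ligands, because their levels in macrophages and fibroblasts carry several of the results below and because searched motifs fall in them. The 3 neutrophil attractants Cxcl1, Cxcl2 and Cxcl3, which lie together on chromosome 5 and act through Cxcr2, hold the motif GGG, any 2 bases, TTTCC, a form of the NF-kB element. Cxcl10, a ligand of Cxcr3 known as an interferon target, holds GAAA, any 2 bases, GAAA, a form of the interferon-stimulated response element. Each line gives the 250 bases before the annotated start, 5′ to 3′ on the gene's strand (RefSeq, GRCm38.p6), with both motifs, searched on both strands, in capitals.
Cxcl1 (chr5:90890995-90891244, plus strand): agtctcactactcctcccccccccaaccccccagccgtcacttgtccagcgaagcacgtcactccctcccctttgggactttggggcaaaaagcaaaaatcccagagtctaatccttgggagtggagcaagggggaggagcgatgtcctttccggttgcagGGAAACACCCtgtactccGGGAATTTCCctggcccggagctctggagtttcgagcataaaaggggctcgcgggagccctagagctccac
Cxcl2 (chr5:90903649-90903898, plus strand): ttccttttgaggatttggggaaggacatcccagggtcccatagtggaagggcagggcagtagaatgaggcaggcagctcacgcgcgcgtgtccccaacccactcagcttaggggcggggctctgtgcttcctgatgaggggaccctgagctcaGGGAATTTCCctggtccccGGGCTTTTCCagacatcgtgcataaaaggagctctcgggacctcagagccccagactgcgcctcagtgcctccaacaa
Cxcl3 (chr5:90785851-90786100, plus strand): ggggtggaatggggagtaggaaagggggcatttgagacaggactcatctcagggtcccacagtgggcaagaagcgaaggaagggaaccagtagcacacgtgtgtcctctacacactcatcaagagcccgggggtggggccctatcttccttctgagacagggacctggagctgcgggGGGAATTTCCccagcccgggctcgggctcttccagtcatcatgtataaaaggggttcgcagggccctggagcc
Cxcl10 (chr5:92348890-92349139, minus strand): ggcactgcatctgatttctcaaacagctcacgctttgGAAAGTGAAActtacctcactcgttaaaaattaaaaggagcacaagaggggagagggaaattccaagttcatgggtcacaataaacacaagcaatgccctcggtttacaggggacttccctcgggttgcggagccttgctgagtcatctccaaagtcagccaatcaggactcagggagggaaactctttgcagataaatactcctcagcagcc

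Of the 33 ligands, 23 matched a promoter in the RefSeq table. The NF-kB motif occurred in 5 of them, at 89 and 71 bases before the start in Cxcl1, at 97 and 78 in Cxcl2, at 73 in Cxcl3, at 80 in Ccl20 and at 35 in Ccl9. The same letters occurred in 1.412% of 32851 promoters of this length. The interferon motif occurred in 2 of the 23, Cxcl10 and Cxcl14, and in 2.977% of all promoters. Also searched were TTCNNNGAA and TGANTCA, where N is any base. Each occurred in 2 of the 23, and they occurred in 7.02% and 6.749% of all promoters. Cxcl9 matched none of these motifs. A match describes letters only, and factor binding was not measured in these libraries.

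A source gate, the gate with the highest mean CPM over both libraries and at least 20 UMIs of the gene, could be given to 29 ligands. Both libraries entered this choice, so a source gate and the library ratio read within it are not independent. The C1q gate was the source of 13: Ccl2, Ccl3, Ccl4, Ccl6, Ccl7, Ccl8, Ccl9, Ccl12, Ccl24, Cxcl1, Cxcl2, Cxcl3 and Cxcl16. The Col1a2 gate was the source of 6 (Ccl11, Cxcl5, Cxcl9, Cxcl10, Cxcl13 and Cxcl14), the Cd3e gate of 4 (Ccl1, Ccl5, Ccl25 and Xcl1), the Cdh5 gate of Cx3cl1 and Cxcl12, the Prox1 and Mmrn1 gate of Ccl20 and Ccl21a, the Epcam gate of Ccl28, and the Flt3 gate of Ccl22. No ligand was highest in the Cd79a gate. With exclusive barcodes 27 of the 29 kept their source, while Ccl20 moved to the Epcam gate and Cxcl16 to the Flt3 gate.

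**Figure D1:**
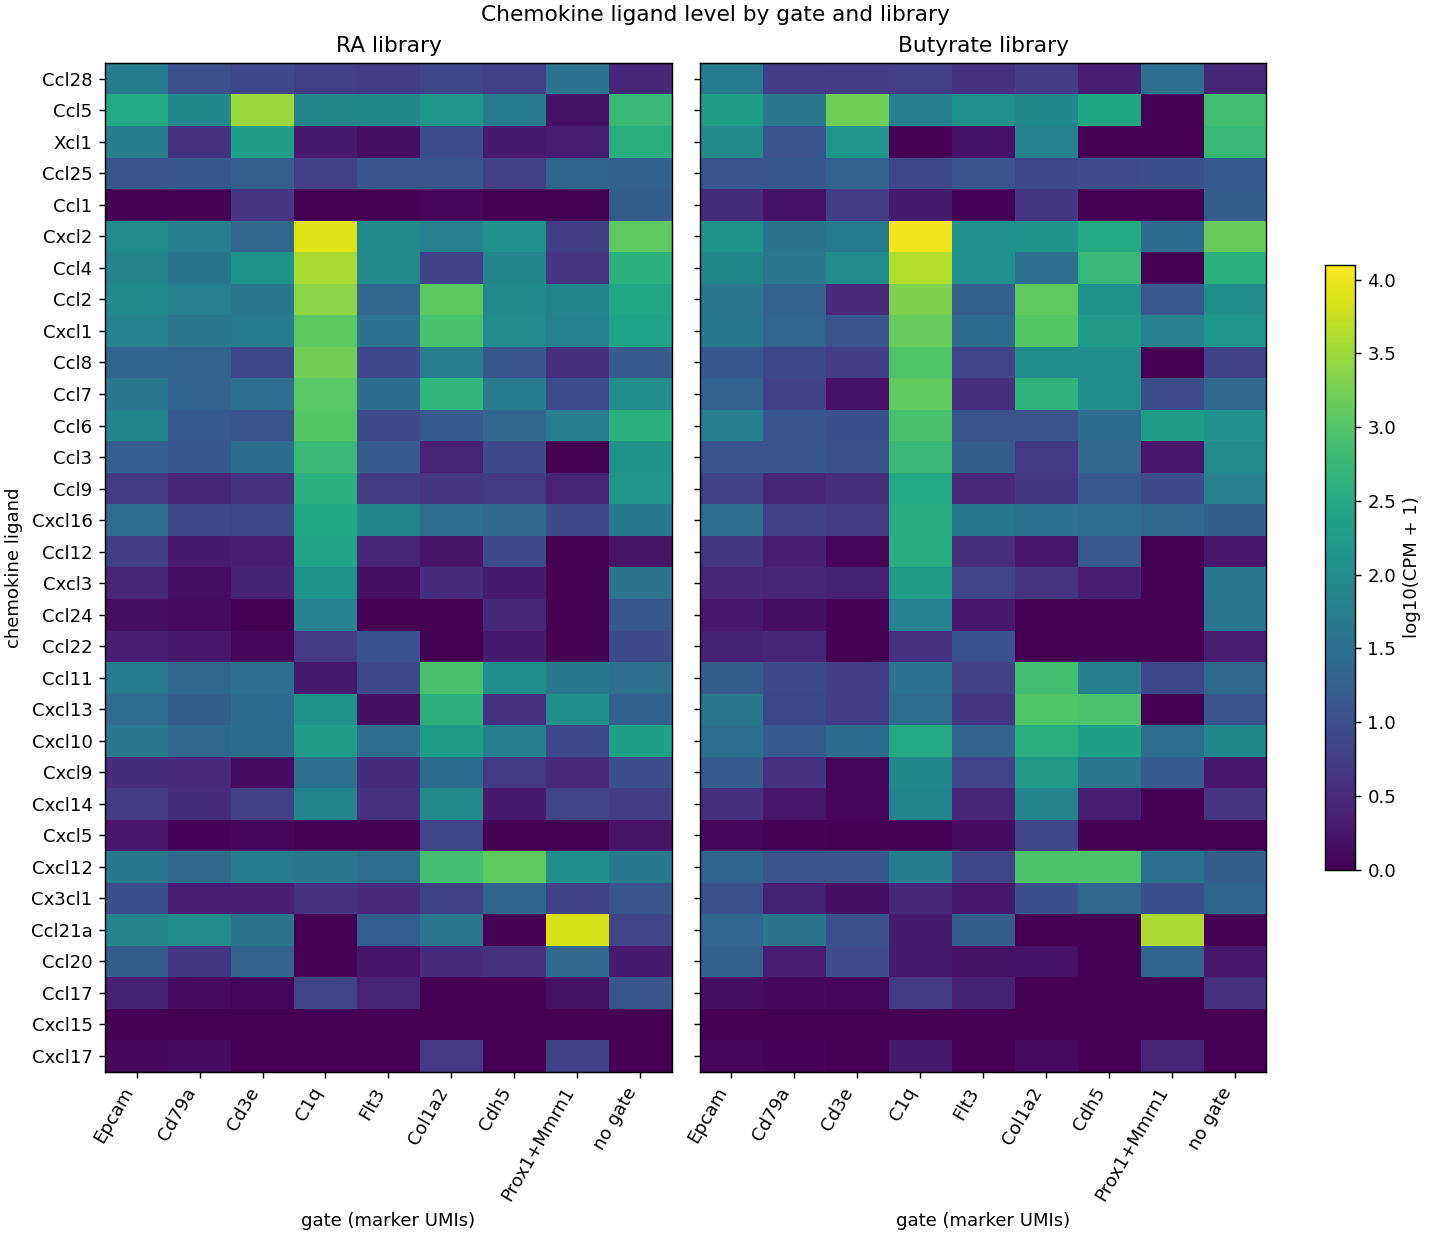
Level of 32 chemokine ligands in 8 gates and in barcodes outside all gates, in the RA library (left) and the butyrate library (right), as log10(CPM + 1). The block of bright cells under C1q holds the 13 macrophage-sourced ligands, and Ccl21a stands out under Prox1 and Mmrn1 with 7065 CPM in RA and 3759 CPM in butyrate.

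Being highest in a gate did not mean that the gate held most of the RNA: only 14 ligands had over 50% of their UMIs in their source gate. The 32 ligands together made up 21438 CPM of the C1q gate in RA and 23605 CPM in butyrate, the highest load of any gate in each library. The Col1a2 gate had 5242 and 6482 CPM but, being larger, held 33.98% of the RA library's ligand UMIs and 23.08% of the butyrate library's. In contrast the Cd79a gate, the most numerous, had 566 and 324 CPM. A C1q barcode held a median of 9 different ligands in both libraries, and 5 after thinning every barcode to 1000 UMIs.

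In the source gates, 3 of 29 ligands were at least 2-fold higher in butyrate (Cxcl9, Cxcl10 and Cxcl13) and 0 were at least 2-fold lower. Over all pairs of a gene and a gate with 20 UMIs, 2.24% were at least 2-fold higher and 7.62% at least 2-fold lower. These pairs include gates other than the one where a gene is highest, so they are not a like set. No share was computed for all genes in their own source gate. The ratio of butyrate to RA was above 1 for 17 ligands and below 1 for 12, with a median of 1.02. Just past the 2-fold limit stood Cxcl10 at 2.025, and nearest to the lower limit without reaching it were Ccl5 at 0.516 and Ccl21a at 0.532.

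**Figure D2:**
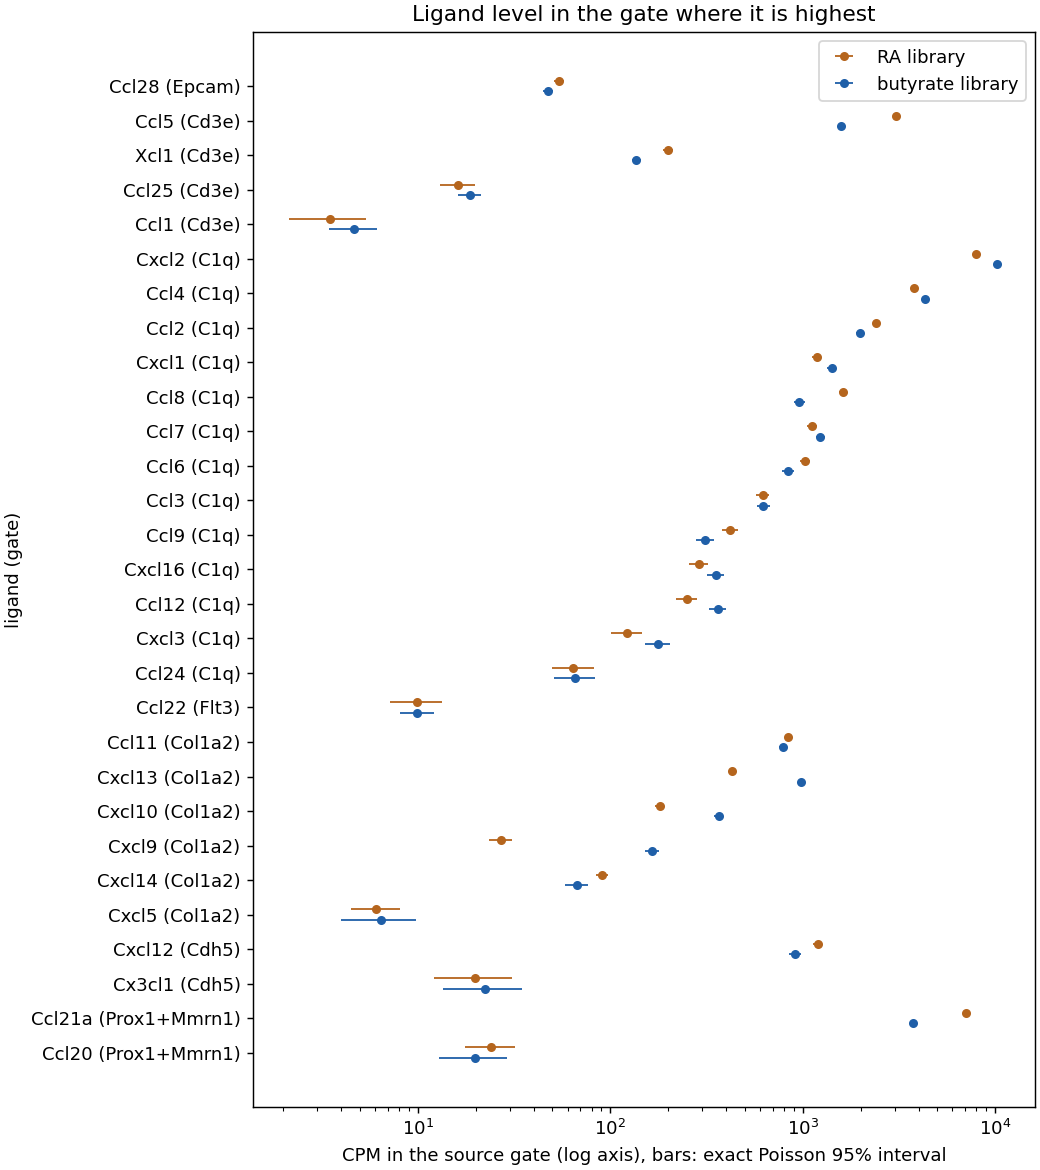
CPM of 29 ligands in their source gate (named in brackets) on a log axis, with 1 point for each library and exact Poisson 95% intervals. The points lie close together for most ligands; Cxcl9, Cxcl10 and Cxcl13 are higher in butyrate, and Ccl5, Ccl8 and Ccl21a are higher in RA.

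Over all kept barcodes of a library, gates set aside, the picture differed: 0 of 31 ligands were at least 2-fold higher in butyrate and 10 were at least 2-fold lower (Ccl2, Ccl7, Ccl9, Ccl11, Ccl17, Ccl21a, Cxcl5, Cxcl12, Cxcl14 and Cxcl17), with a median ratio of 0.737. Among all genes tested in this way, 1.37% were higher and 13.4% lower, with a median of 0.929. The eosinophil attractant Ccl11 had a ratio of 0.32 over all barcodes and 0.933 within the Col1a2 gate, and the monocyte attractant Ccl2 had 0.389 over all barcodes, 0.822 within the C1q gate and 1.019 within the Col1a2 gate. The share of Col1a2 barcodes moved with these ratios over all barcodes, and its part in them was not tested for each ligand. Cxcl10 and Cxcl13, at least 2-fold higher in butyrate within the Col1a2 gate, were lower over all barcodes, with ratios of 0.705 and 0.737. Cxcl9 stayed higher over all barcodes, with a ratio of 1.931. Over mixed barcodes, fewer cells of a type and less RNA per cell cannot be told apart.

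**Figure D3:**
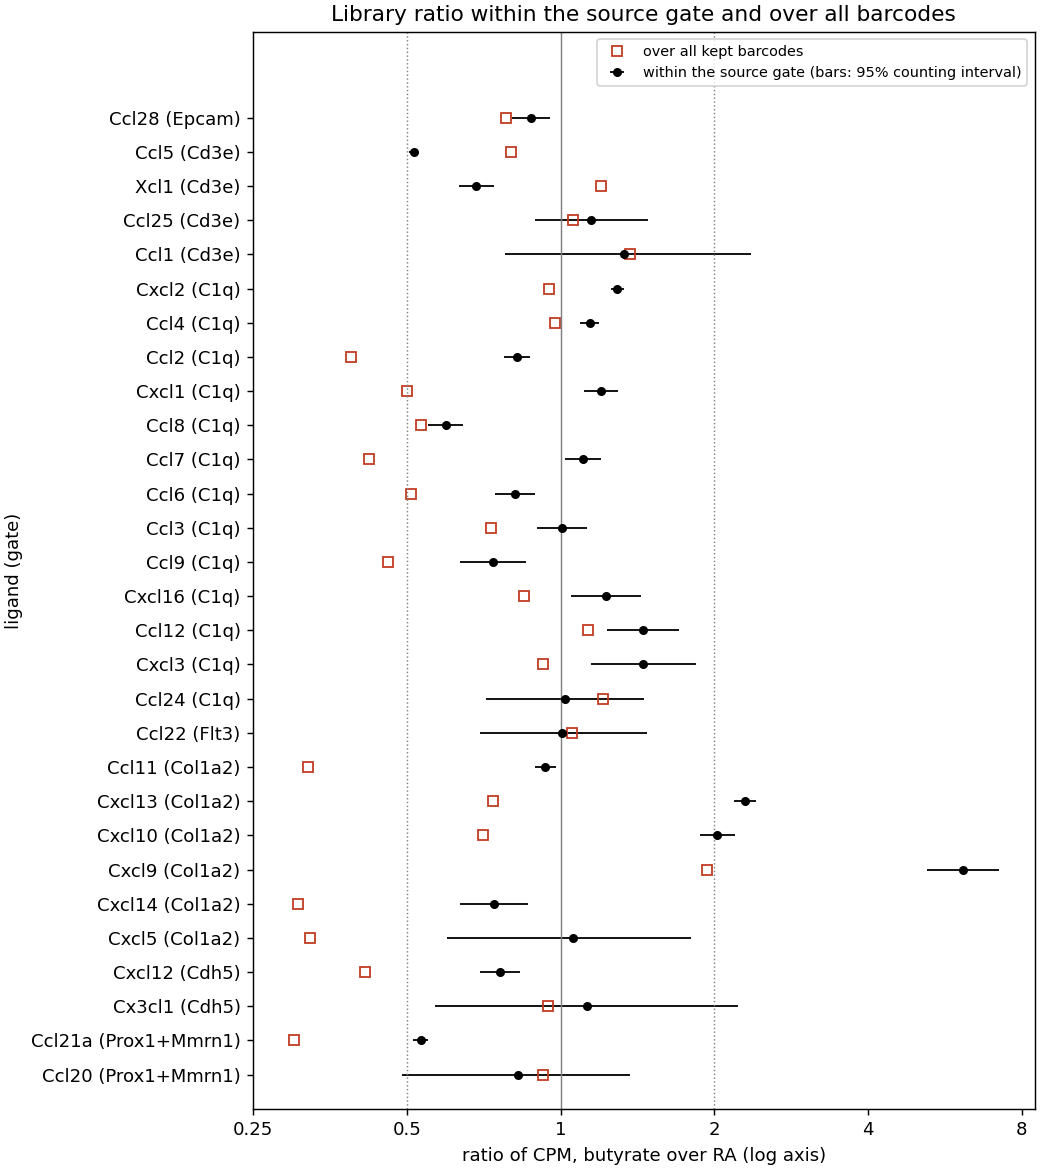
Ratio of CPM, butyrate over RA, on a log axis, within the source gate (black, with 95% counting intervals) and over all kept barcodes (red squares) for 29 ligands; dotted lines mark 0.5 and 2. For most ligands sourced in the C1q and Col1a2 gates the red square lies to the left of the black point, as for Ccl11 at 0.32 and 0.933.

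Among ligands of neutrophils, Cxcl2 was the most abundant ligand of the C1q gate, with 8045 UMIs or 7966 CPM in RA and 10496 UMIs or 10285 CPM in butyrate. The ratio was 1.291 (1.254 to 1.329). At 1000 UMIs per barcode 77.78% of RA and 80.37% of butyrate C1q barcodes had a Cxcl2 UMI (82.31% and 85.05% at full depth), against 1.278% and 0.881% of Cd79a barcodes (3.708% and 2.78% at full depth), at median depths of 6314 and 8087 in the C1q gate and 4234 and 4634 in the Cd79a gate. Cxcl2 in macrophages was thus far above the level of a gate that should lack it, in both libraries.

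Cxcl1 was made at similar levels by macrophages and fibroblasts. Its UMIs numbered 1194 and 1445 in the C1q gate, at 1182 CPM in RA and 1416 CPM in butyrate, a ratio of 1.198 (1.109 to 1.294). In the Col1a2 gate it stood at 833 and 1054 CPM, from 6429 and 3441 UMIs. Cxcl3, the third neutrophil ligand of this cluster, was nearly confined to C1q barcodes among the gates, with 123 UMIs at 122 CPM in RA and 180 UMIs at 176 CPM in butyrate, a ratio of 1.448 (1.145 to 1.837), while its next gate had a mean of 3.22 CPM. Barcodes outside all gates held 37.8% of Cxcl3 UMIs, at a mean of 39.34 CPM. Cxcl5, also a Cxcr2 ligand, was low and highest in fibroblasts, with 47 and 21 UMIs (6.089 and 6.433 CPM) and a ratio of 1.056 (0.6 to 1.802). Their receptor Cxcr2 had 93 UMIs in all and no source gate.

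Monocyte attractants that signal through Ccr2 were shared by macrophages and fibroblasts. Ccl2 had 2439 UMIs at 2415 CPM in RA and 2026 UMIs at 1985 CPM in butyrate C1q barcodes, a ratio of 0.822 (0.775 to 0.872). Ccl7, its neighbour, had 1126 and 1260 UMIs at 1115 and 1235 CPM, a ratio of 1.107 (1.021 to 1.201). Both were next highest in the Col1a2 gate, at 1186 and 1209 CPM for Ccl2 and 492 and 465 CPM for Ccl7. Ccl12, a further Ccr2 ligand of the same chromosome 11 cluster, was by contrast almost restricted to C1q barcodes. These held 95.41% of its UMIs, barcodes shared with other gates included. Ccl12 had 253 UMIs at 250 CPM in RA and 370 UMIs at 363 CPM in butyrate, a ratio of 1.447 (1.23 to 1.705) that was 2.026 among exclusive barcodes. Ccr2 itself was highest in the C1q gate, at 258 and 246 CPM.

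Ccl8, which binds several CC receptors, was the macrophage ligand with the lowest ratio. It had 1631 UMIs at 1615 CPM in RA and 981 UMIs at 961 CPM in butyrate, a ratio of 0.595 (0.549 to 0.645), and 1 RA barcode held 364 of its UMIs. Barcodes with at least 2 UMIs of Cd163, Folr2 and Lyve1, genes of tissue-resident perivascular macrophages, carried 3282 CPM of Ccl8 in RA and 1846 CPM in butyrate. Other C1q barcodes carried 471 and 418 CPM. Ccl8 was therefore several times higher in the Cd163, Folr2 and Lyve1 set in both libraries, and its library ratio was 0.562 inside the set and 0.887 outside it. With each barcode thinned to 1000 UMIs the ratio over the whole gate was 0.939.

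The inflammatory ligands Ccl3 and Ccl4, neighbours on chromosome 11, were both macrophage ligands. Ccl3 had 627 and 637 UMIs at 621 CPM in RA and 624 CPM in butyrate, a ratio of 1.005 (0.899 to 1.124). Ccl4 was more abundant, with 3845 UMIs at 3807 CPM in RA and 4432 UMIs at 4343 CPM in butyrate, a ratio of 1.141 (1.092 to 1.191). Neither differed much between libraries, although among exclusive barcodes Ccl4 reached 1.583. Ccr1, a receptor of Ccl3, was at 245 and 190 CPM in the same gate.

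Ccl6 and Ccl9, mouse ligands of Ccr1, were lower in butyrate C1q barcodes, by less than 2-fold. Ccl6 had 1041 UMIs at 1031 CPM in RA and 856 UMIs at 839 CPM in butyrate, a ratio of 0.814 (0.743 to 0.892). Ccl9 had 425 and 317 UMIs at 421 and 311 CPM, a ratio of 0.738 (0.636 to 0.856), with 38.47% of its UMIs outside all gates. Ccl6 had a further source within the epithelium: Epcam barcodes with at least 10 UMIs of the goblet genes Muc2, Fcgbp and Clca1 carried 357 CPM in RA and 344 CPM in butyrate, in 92 of 156 and 101 of 140 barcodes. Other Epcam barcodes carried 17.2 and 15.1 CPM of Ccl6.

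Among the remaining macrophage ligands, Ccl24, an eosinophil attractant, had 65 and 67 UMIs at 64.4 CPM in RA and 65.7 CPM in butyrate, a ratio of 1.02 (0.714 to 1.458). Barcodes outside all gates held 47.37% of its UMIs. Cxcl16, a membrane-bound ligand of Cxcr6, had 291 and 361 UMIs at 288 and 354 CPM, a ratio of 1.228 (1.049 to 1.438). Cxcl16 was also high in the 59 RA and 65 butyrate Flt3 barcodes without Cd79a, at 428 and 525 CPM. In these barcodes Ccl22, a ligand of Ccr4 made by dendritic cells, stood at 64.3 and 65.6 CPM, against 1.328 and 5.675 CPM in Flt3 barcodes with Cd79a. Over the whole Flt3 gate Ccl22 had 43 and 98 UMIs at 9.868 and 9.935 CPM, a ratio of 1.007 (0.697 to 1.477). Ccr4 was highest in the Cd3e gate, at 23 CPM in RA and 9.845 CPM in butyrate, a ratio of 0.428 (0.328 to 0.557).

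Fibroblasts were the gate of all 3 ligands past 2-fold, where 1.96% of 13754 genes were at least 2-fold higher in butyrate and 5.41% at least 2-fold lower. In this gate 7 macrophage markers summed to 25.8 and 41.4 CPM, against 8326 and 7754 CPM in the C1q gate. Cxcl9, a Cxcr3 ligand induced by interferon gamma, had 208 UMIs at 27 CPM in RA and 539 UMIs at 165 CPM in butyrate, a ratio of 6.127 (5.212 to 7.225). These UMIs lay in 27 of 865 and 20 of 367 barcodes. The highest butyrate barcode held 208 of the 539 UMIs and the highest RA barcode 68 of 208, so the value rests on few cells, and with these left out the levels were 18.2 and 102 CPM. Among exclusive barcodes the ratio was 4.337.

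Cxcl10 was spread over more fibroblasts, with 1394 UMIs in 168 barcodes at 181 CPM in RA and 1194 UMIs in 108 barcodes at 366 CPM in butyrate. Its ratio was 2.025 (1.873 to 2.19), and 2.261 among exclusive barcodes. Cxcl9 and Cxcl10 were also found in C1q barcodes, Cxcl9 at 31.7 and 74.5 CPM and Cxcl10 at 180 and 304 CPM. In RA, Cxcl9 was thus higher in the C1q gate than in the Col1a2 gate, at 27 CPM, and Cxcl10 was level in the 2 gates. The choice of the Col1a2 gate as the source of both ligands therefore rested on their butyrate levels, which also enter the ratios. Their receptor Cxcr3 was highest in the Cd3e gate, at 22.7 CPM in RA and 34.9 CPM in butyrate, a ratio of 1.541 (1.259 to 1.896).

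Cxcl13, which guides Cxcr5-bearing B cells into lymphoid follicles, had 3304 UMIs at 428 CPM in RA and 3205 UMIs at 982 CPM in butyrate, a ratio of 2.294 (2.184 to 2.409). One butyrate barcode, which passed the Epcam, Col1a2 and Cdh5 gates, held 742 of the 3205 UMIs. Without the highest barcode of each library the levels were 410 and 759 CPM, which is under 2-fold. Among exclusive barcodes, which also leave out that butyrate barcode, the levels were 443.5 and 996 CPM, a ratio of 2.246. Cxcr5 was highest in the Cd79a gate, at 117 and 131 CPM.

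The other fibroblast ligands were within 2-fold. Ccl11 was the most evenly spread, with 6506 UMIs in 693 of 865 RA barcodes and 2568 UMIs in 298 of 367 butyrate barcodes. Its level was 843 CPM in RA and 787 CPM in butyrate, a ratio of 0.933 (0.891 to 0.977). At 1000 UMIs per barcode 43.89% and 47.14% of Col1a2 barcodes had a Ccl11 UMI (80.12% and 81.2% at full depth), against 0.767% and 0.255% of Cd79a barcodes (2.066% and 0.685% at full depth), whose median depths were 4234 and 4634 against 7757 and 7734. Its receptor Ccr3 had 124 UMIs in all and no source gate. Cxcl14, a ligand of epithelium and stroma, had 698 and 219 UMIs at 90.4 and 67.1 CPM, a ratio of 0.742 (0.634 to 0.865). Its mean of both libraries was 78.75 CPM in the Col1a2 gate and 69.94 CPM in the C1q gate, so these gates lay close. Barcodes in the Col1a2 gate alone held 76.43% of its RA UMIs and 57.24% of its butyrate UMIs. Barcodes in the C1q gate alone held 3.822% and 11.78%.

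Within the Col1a2 gate the ligands divided by Adamdec1, a gene of mucosal fibroblasts near the crypts. Barcodes with at least 2 Adamdec1 UMIs numbered 357 of 865 in RA and 195 of 367 in butyrate. Cxcl12 stood at 1647 and 1514 CPM in them and at 182 and 194 CPM in the rest. Cxcl9, Cxcl10, Cxcl13, Ccl8 and Cxcl14 were also higher in the Adamdec1 set in both libraries, with Cxcl13 at 1043 and 1425 CPM against 16.7 and 485 CPM. Of the 746 butyrate UMIs of Cxcl13 outside the set, 742 were in the 1 barcode named above.

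Ccl2 and Ccl7 showed the opposite division. Ccl2 was at 1853 CPM in RA and 2172 CPM in butyrate where Adamdec1 was under 2 UMIs, and at 189 and 350 CPM where it was not. Ccl7 was at 796 and 932 CPM against 38.2 and 48.7 CPM, whereas Ccl11 was at a like level on both sides. Within the Adamdec1 set alone the library ratio was 4.613 (3.914 to 5.455) for Cxcl9, 1.364 (1.239 to 1.501) for Cxcl10 and 1.366 (1.295 to 1.44) for Cxcl13. Outside the set Cxcl10 stood at 88 CPM in RA and 288 CPM in butyrate, a ratio of 3.272 (2.854 to 3.753), with 129 of its 443 butyrate UMIs in 1 barcode. Cxcl9 had only 6 and 19 UMIs outside the set. The ratio of Cxcl10 was past 2-fold outside the set and under it inside, a difference that was not tested, and the part of the Adamdec1 share in the ratios over the whole gate was not tested.

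**Figure D4:**
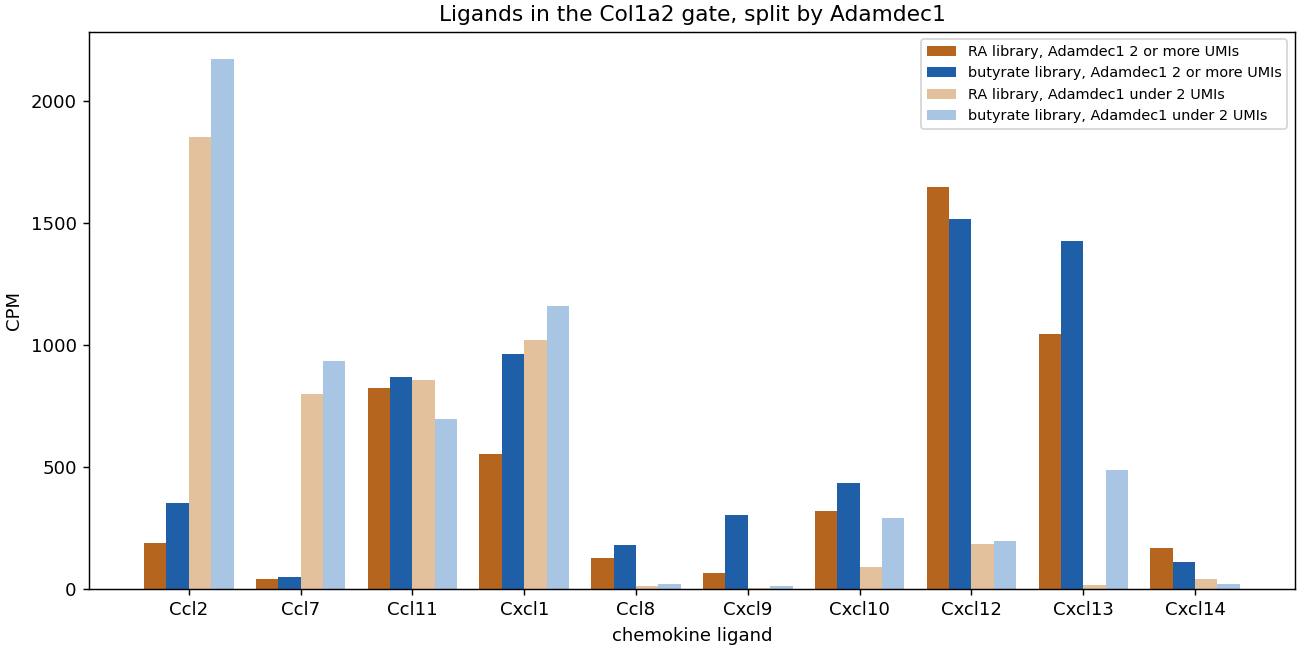
CPM of 10 ligands in Col1a2 barcodes with at least 2 Adamdec1 UMIs (dark bars) and with fewer (light bars), in the RA library (brown) and the butyrate library (blue); there are no error bars because each bar is 1 library. Cxcl12 and Cxcl13 are high in the dark bars, and Ccl2 and Ccl7 in the light bars, in both libraries.

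In the C1q and Col1a2 gates, where most ligands had their source, 8 immediate early genes (Fos, Fosb, Jun, Junb, Egr1, Ier2, Atf3 and Dusp1, chosen after their values were seen) summed to 11222 and 12407 CPM in the C1q gate and 18452 and 22494 CPM in the Col1a2 gate, RA before butyrate. These genes are known to respond within minutes to tissue dissociation, and their part in the ligand levels was not tested.

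T cells were the main source of Ccl5, a ligand stored by cytotoxic lymphocytes. The Cd3e gate held 86.53% of its UMIs, barcodes shared with other gates included. Barcodes in the Cd3e gate alone held 52.7% in RA and 60.14% in butyrate. Ccl5 had 17608 UMIs at 3070 CPM in RA and 17038 UMIs at 1582 CPM in butyrate, a ratio of 0.516 (0.505 to 0.527), in a gate where 1.4% of genes were at least 2-fold higher and 8.88% at least 2-fold lower. Among exclusive barcodes the ratio was 0.569. In the Cd3e gate 8 epithelial markers summed to 823 and 385 CPM, and their part in the ratio was not tested.

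The ratio of Ccl5 was lower among Cd8a barcodes than among other Cd3e barcodes, and this difference between sets was not tested. The 153 RA and 306 butyrate barcodes with Cd8a stood at 9535 and 3482 CPM, a ratio of 0.365 (0.356 to 0.374). Cd3e barcodes without Cd8a stood at 826 and 770 CPM, a ratio of 0.931 (0.893 to 0.971).

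Xcl1, whose receptor Xcr1 marks cross-presenting dendritic cells, had 1146 UMIs at 200 CPM in RA and 1470 UMIs at 137 CPM in butyrate Cd3e barcodes, a ratio of 0.683 (0.632 to 0.739), and 0.495 among exclusive barcodes. Over all kept barcodes the ratio of Xcl1 was 1.202. Barcodes in the Cd3e gate alone held 16.44% of its RA UMIs and 10.82% of its butyrate UMIs. Barcodes in the Epcam gate alone held 13.52% and 22.17%, so in butyrate they held more than the Cd3e gate alone. Within the Cd3e gate Xcl1 was concentrated in barcodes with Trdc, the constant gene of the gamma delta T cell receptor. These stood at 886 and 815 CPM, a ratio of 0.92 (0.835 to 1.013). Barcodes without Trdc stood at 64.1 and 62.9 CPM. The ratio on the latter side was 0.981 (0.854 to 1.129), while Trdc barcodes made up 108 of 743 in RA and 126 of 1355 in butyrate. Xcl1 was higher still outside all gates, at 390 and 608 CPM. There, barcodes with Ncr1 or Klrb1c, genes of natural killer cells and related innate lymphocytes, held it at 3590 and 3375 CPM, in 42 of 44 and 56 of 62 barcodes.

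Ccl25, the small intestinal ligand of Ccr9, was nearly flat over the gates and so had no clear source. It had 93 and 200 UMIs at 16.2 and 18.6 CPM in the Cd3e gate, a ratio of 1.146 (0.892 to 1.482), against 14.4 CPM in the next gate and 5.905 CPM in the lowest. Epcam barcodes with enterocyte genes had 6.878 and 9.827 CPM. Ccl1, the ligand of Ccr8, had 20 and 50 UMIs at 3.487 and 4.644 CPM in the Cd3e gate, a ratio of 1.332 (0.779 to 2.362), from 2 and 9 barcodes. One RA barcode held 18 of the 20 UMIs, and among exclusive barcodes the ratio was 0.228.

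Blood endothelium was highest for Cxcl12, the ligand of Cxcr4 and Ackr3 that retains leukocytes in tissue. It had 1202 UMIs at 1194 CPM in RA and 772 UMIs at 908 CPM in butyrate, a ratio of 0.761 (0.694 to 0.834). In the Cdh5 gate 8 epithelial markers summed to 1392 CPM in RA and 84.7 CPM in butyrate, and their part in the ratio was not tested. Fibroblasts had Cxcl12 at 769 and 892 CPM over the whole Col1a2 gate, but at 1647 and 1514 CPM in the Adamdec1 set, which made up 357 of 865 RA and 195 of 367 butyrate barcodes. Cxcr4 was highest in the Cd79a gate at 418 and 403 CPM, and the scavenger Ackr3 in the Col1a2 gate at 378 and 304 CPM. Among exclusive barcodes Ackr3 was instead highest in the Prox1 and Mmrn1 gate, while the Col1a2 gate stood at 446.5 and 333.8 CPM. Cx3cl1, a membrane-bound ligand of Cx3cr1, had only 20 and 19 UMIs in the Cdh5 gate at 19.9 and 22.4 CPM, a ratio of 1.126 (0.568 to 2.222). The Epcam gate held more of its UMIs, 175 and 205, at 9.01 and 9.467 CPM.

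Ccl21a, the lymphatic ligand that leads Ccr7-bearing dendritic and T cells to lymph nodes, had 99.46% of its UMIs in the Prox1 and Mmrn1 gate, barcodes shared with other gates included. It had 13267 UMIs at 7065 CPM in RA and 4949 UMIs at 3759 CPM in butyrate, a ratio of 0.532 (0.515 to 0.55). Among exclusive barcodes the ratio was 0.878, and the epithelial marker sum of the gate, 3807 and 5903 CPM, moved with the ratio over the whole gate. In that gate 2.34% of genes were at least 2-fold higher and 11.5% at least 2-fold lower. The genome carries near-identical copies of Ccl21a, so its count is uncertain. Ccl20, the Ccr6 ligand of epithelium, had 45 and 26 UMIs there at 24 and 19.8 CPM, a ratio of 0.824 (0.488 to 1.365), and 15 and 17.5 CPM in the Epcam gate. Exclusive barcodes of the Prox1 and Mmrn1 gate gave no ratio for Ccl20, which had 0 UMIs there. Barcodes in the Epcam gate alone held 41.67% of Ccl20 UMIs in RA and 66.23% in butyrate. Barcodes in the Cd3e gate alone held 22.98% and 14.57%. Ccr6 was highest in the Cd79a gate at 79.9 and 98.1 CPM.

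The epithelial ligand was Ccl28, which attracts Ccr10-bearing antibody-secreting cells. The Epcam gate held 97.48% of its UMIs, barcodes shared with other gates included. Ccl28 had 1056 UMIs at 54.4 CPM in RA and 1030 UMIs at 47.6 CPM in butyrate, a ratio of 0.875 (0.802 to 0.954). Epcam barcodes with colonocyte genes (Aqp8, Car1 and Slc26a3) stood at 91.9 and 90.9 CPM, and other Epcam barcodes at 38.9 and 30.4 CPM. Ccr10 was found in the Cd79a gate at 30.2 CPM in RA and 9.687 CPM in butyrate, a ratio of 0.321 (0.28 to 0.368). The mean of both libraries was 19.92 CPM in the Cd79a gate and 19.84 CPM in the Epcam gate, so neither gate stood out as the source of Ccr10. In the Cd79a gate 3 plasma cell markers (Jchain, Sdc1 and Xbp1) summed to 5990 CPM in RA and 1851 CPM in butyrate, and their part in the ratio was not tested. In that gate 10.7% of genes were at least 2-fold lower in butyrate.

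Of the 22 receptors in the list, 19 had a source gate, 0 of them were at least 2-fold higher and 3 at least 2-fold lower in butyrate: Ccr4, Ccr10 and Ccr9. Ccr9, the receptor of Ccl25, stood at 84.4 and 9.411 CPM in the Cdh5 gate, which held only 14.58% of its UMIs. All of these lay in barcodes shared with other gates: exclusive Cdh5 barcodes had 0 Ccr9 UMIs in both libraries. The highest exclusive level was in the Flt3 gate, at 77.3 and 65.6 CPM, and rested on few barcodes. It came from 24 UMIs in 2 of 39 RA barcodes and 23 UMIs in 3 of 36 butyrate barcodes. One barcode held 13 of these UMIs in RA and 1 held 20 in butyrate. Over all pairs of a ligand and a gate, 34 of 183 were at least 2-fold higher and 38 of 183 at least 2-fold lower, against 2.24% and 7.62% of all gene and gate pairs. By gate, ligands at least 2-fold higher and lower numbered 2 and 1 of 20 in the C1q gate (4.02% and 4.32% of all genes), 7 and 3 of 26 in the Col1a2 gate, and 9 and 0 of 16 in the Cdh5 gate (3.86% and 6.42%). They numbered 3 and 7 of 30 in the Epcam gate (1.99% and 6.36%), 4 and 9 of 28 in the Cd79a gate (1.69% and 10.7%), and 1 and 10 of 23 in the Cd3e gate. In the Flt3 gate they numbered 3 and 3 of 24 (2.04% and 6.24%), in the Prox1 and Mmrn1 gate 5 and 5 of 16, and outside all gates 1 and 11 of 25 (3% and 17.1%). Many of these values lay outside the source gate and rested on few barcodes. In the Cdh5 gate, for example, 1 butyrate barcode held 419 of 468 Ccl4 UMIs, and another held all 742 Cxcl13 UMIs.

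The ligands with a row but no source gate were 3: Ccl17 with 111 UMIs in all, Cxcl17 with 50 and Cxcl15 with 1. Ccl17 had 37 of its UMIs in the Epcam gate and 37 RA UMIs outside all gates. The highest mean for Ccl17 and Cxcl17 lay in gates where they had under 20 UMIs.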

How the data were processed

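Single-cell RNA counts of dissociated intestine came from 1 mouse in each of 2 groups. Per the submitters' processing notes, reads were processed with Cell Ranger 6.0.1 on mm10 and with Seurat 4.0.3 and 4.0.4; the file header names cellranger 7.1.0. The deposited values are whole-number UMI counts of genes per barcode, as the authors' counting gave them, and the use of intronic reads is not given in the sources used here. The members and gene lists were chosen with earlier results of these data known.

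Barcodes were filtered and gated on other genes than the ligands, with at least 1 UMI of Epcam, Cd79a, Cd3e, Flt3 or Cdh5, at least 10 of the 3 C1q genes, at least 2 of Col1a2, or at least 2 of Prox1 and Mmrn1, whose barcodes were left out of the Cdh5 gate. Counts were summed by gate and library, scaled to the gate's total, and compared as a ratio of butyrate to RA with exact conditional binomial intervals; CPM intervals are exact Poisson. A ligand was called at 2-fold with at least 20 UMIs in the gate. No p-value was computed. All members are accounted for: those with at least 20 UMIs in their source gate are given with values, and those with fewer by their total. The interval code was tested on simulated data. Thinning drew 1000 UMIs from each barcode. Doublets were not removed in the values reported; Scrublet (scanpy 1.11.5) marked 0 RA and 2 butyrate barcodes by its own threshold, so an alternative removed the 382 and 544 highest scores. Other settings were exclusive gates, doubled thresholds, a mitochondrial limit of 10%, a common depth floor, means over barcodes, omission of the top barcode, other UMI minimums, 1.5-fold calls and totals without mitochondrial, ribosomal and immunoglobulin genes. Python 3.11.15, numpy 2.4.6, scipy 1.17.1 and pandas 2.3.3 were used. Some withheld genes are not reported here. Gene positions are from GENCODE on GRCm38.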

Additional observations from a re-analysis of the deposited data

Results flagged for a closer look

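Most ligands had some UMIs in barcodes outside all gates, up to 47.37% for Ccl24. The comparisons of source gates do not use these barcodes. For 3 ligands the mean level there was above that of every gate. The mean of both libraries was 15.41 CPM for Ccl1, 7.277 CPM for Ccl17 and 499.2 CPM for Xcl1. For Ccl1 the UMIs outside the gates lay in 6 RA and 7 butyrate barcodes, and barcodes with at least 2 UMIs of Cpa3, Kit and Tpsb2 held 48 of 49 in RA and 31 of 37 in butyrate. For Ccl17 a single RA barcode held 26 of 37 UMIs.

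For 5 ligands the ratio of butyrate to RA pointed in opposite directions in different gates, each by at least 2-fold; these differences were not tested. Ccl3 had a ratio of 2.814 in the Cdh5 gate, from 8 and 19 UMIs, and 0.3415 in the Cd3e gate, from 156 and 100 UMIs. Ccl7 had 2.098 in the Cdh5 gate and 0.01998 in the Cd3e gate, where 15 RA barcodes held 160 UMIs and 6 butyrate barcodes held 6. Ccl8 had 9.182 in the Cdh5 gate, where 1 butyrate barcode held 65 of 93 UMIs, and 0.3515 in the Cd79a gate.

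Ccl11 had a ratio of 35.63 in the C1q gate, from 1 RA UMI against 36 in butyrate of which 32 were in 1 barcode (5.999 to 1446), and 0.1392 in the Cd3e gate. In the Cd3e gate 6 fibroblast markers summed to 530 CPM in RA and 69.4 CPM in butyrate, which moved with the Ccl11 ratio there, and their part in it was not tested. Cxcl13 had 293 in the Cdh5 gate, where all 742 butyrate UMIs were in 1 barcode that also passed the Col1a2 and Epcam gates. In the Prox1 and Mmrn1 gate Cxcl13 had 194 RA UMIs in 6 barcodes and 0 in butyrate, a ratio of at most 0.02206 against a floor of 3 counts over the gate.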

How the results depend on the processing

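The count of ligands at least 2-fold higher in their source gate was 3, and 1 with gate thresholds doubled and 1 without the highest doublet scores. It was 2 without the top barcode of each library and 2 with totals without mitochondrial, ribosomal and immunoglobulin genes. With exclusive gates, thinned barcodes and means over barcodes it was 4 each. The count at least 2-fold lower was 0, and 2 with exclusive gates, 2 with a mitochondrial limit of 10%, 1 with each of doubled thresholds, thinned barcodes, means over barcodes, omission of the top barcode, removal of the highest doublet scores and no UMI minimum, and 3 for calls at 1.5-fold. The cause was not tested. Shares over all genes were computed in the main setting only, so none stands beside the counts of the other settings here or below. Over all pairs of ligand and gate, the 34 of 183 higher became 18 of 112 with exclusive gates, 16 of 98 after thinning and 21 of 160 without the top barcode of each library, and the 38 of 183 lower became 20 of 98 after thinning; fewer pairs had enough UMIs to be counted in these settings.

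Over 8 settings that alter barcodes or gates, 21 of 29 ligands stayed on one side of a ratio of 1. Cxcl9 ranged from 4.077 to 7.71, and passed 2-fold in all 8; Cxcl10 ranged from 1.756 to 2.509 and passed in 4, Cxcl13 from 1.725 to 2.337 and passed in 5. Ccl5 ranged from 0.463 to 0.569 and was at or under 0.5 in 4, and Ccl21a ranged from 0.475 to 0.933. Ccl1 ranged from 0.127 to 12.28. No paired analysis was possible because each group has 1 library. Depth limits ligands with few UMIs, such as Cx3cl1, Ccl20 and Cxcl5, whose counting intervals include 1.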

Other observations

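Outside all gates, myeloid markers set apart barcodes rich in Ccl6 and Cxcl2. In RA, 72 barcodes with a UMI of Siglecf, Epx or Ccr3, genes of eosinophils, had Ccl6 at 4541 CPM, in 71 of 72 barcodes, and at most 16 UMIs in any of them. Only 3 butyrate barcodes met this rule, so no ratio is given. The median depth of the 72 barcodes was 950.5 UMIs, below the shallowest kept butyrate barcode at 2316 UMIs.

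Barcodes with at least 5 UMIs of S100a8, S100a9 and Retnlg, genes of neutrophils, numbered 69 in RA and 11 in butyrate. Cxcl2 stood at 5601 and 9339 CPM in them, Ccl6 at 2479 and 957 CPM, and Ccl3 at 1217 and 225 CPM. The butyrate values rest on 332, 34 and 8 UMIs. The median depth was 1162 UMIs in RA and 3248 in butyrate, and the part of depth in these numbers was not tested.

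Pf4, a platelet-associated CXC ligand outside the list of 33, was highest in the C1q gate, with 1166 UMIs at 1155 CPM in RA and 585 UMIs at 573 CPM in butyrate, a ratio of 0.497 (0.449 to 0.549). In that gate 4.02% of genes were at least 2-fold higher and 4.32% at least 2-fold lower.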
